A study of Arabidopsis thaliana with 40 samples.

Results

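The AP2/ERF factors of Arabidopsis thaliana outside group VII were followed through 3 h of submergence in the dark, in total mRNA and in mRNA carried by heavy polysomes. Members were the nuclear loci whose annotation text in the count tables names an integrase-type DNA-binding superfamily, an ERF domain, an ethylene response factor or an ethylene responsive element binding factor, without the 5 group VII loci. The rule gave 97 of 33592 loci. It used no expression value. Its text misses 45 further loci of the AP2/ERF lists, which were counted separately.

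AP2/ERF proteins bind DNA through the AP2 domain, and plants carry them as a large family. ERF subfamily factors bind the GCC box of ethylene and defence genes, DREB subfamily factors bind the dehydration-responsive element of cold, drought and heat genes, and some members of group VIII repress transcription through an EAR motif. Ethylene gas collects in tissue under water because it diffuses away slowly there, and it acts through receptors of the ER membrane and the EIN3 transcription factors, which switch on ERF genes. Group VII factors, which are degraded where oxygen is present, are the best known AP2/ERF factors of flooding, and the other groups are known mainly from wounding, defence, cold, heat and development.

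Whole seedlings were sampled at 9 days of age, after 3 h under water in the dark or after 3 h in the dark alone, so both conditions lacked light. The 16 libraries form 8 groups of 2: submerged K48M, dark K48M, submerged Col-0 and dark Col-0, each as total mRNA and as polysome RNA. Col-0 is the wild type, and K48M is a line in the Col-0 background that overexpresses SnRK1.1 (KIN10), a catalytic subunit of the energy-sensing kinase SnRK1, with the K48M amino acid change. The labels name neither the promoter of that transgene nor how many lines were used. The series text gives 2 independent biological repeats; here they are called the ST_FR and LTF_GG library sets after the sample titles, and every pair of values below is in that order. With 2 libraries a group, p-values measure the spread between these libraries.

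For 2 of the 16 libraries, K48M total mRNA of the LTF_GG set, the sample title and the count table's column header give opposite conditions. The header was followed, which is also the condition in the authors' index sheet, and the text says which members' calls in K48M total mRNA were kept without these libraries. By header, ERF73, a group VII factor, had 209 CPM in submerged K48M and 19.7 CPM in dark K48M of this pair, against 89.5 and 7.32 CPM in the ST_FR pair, and the ACC oxidase gene ACO1 had 226 and 14.6 CPM, against 179 and 12.8 CPM. The 7 other pairs of a genotype, fraction and set also had both genes higher in the submerged library. Reads assigned to genes numbered 3.75 M to 6.77 M per library, and ribosomal RNA genes held 0.874% to 38.1% of them. The lowest depth, the highest ribosomal share and the lowest TMM factor (0.572) belong to the same library, dark Col-0 polysome RNA of the ST_FR set, and the next highest share was 14.6%. KIN10 had 1170 to 1550 CPM (reads scaled to a common library size by the TMM method) in K48M total mRNA and 232 to 412 CPM in K48M polysome RNA, against 25.8 to 36.9 CPM in Col-0. Leaf genes (CAB1 5640 to 42900 CPM) and root genes (PYK10 770 to 3640 CPM) were present in every library, as the label whole seedling says. In such tissue fewer cells of a type and less RNA per cell cannot be told apart.

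Of the 97 members, 58 were among the 19024 genes with enough reads to be tested. The other 39 held at most 94 reads over all 16 libraries and at most 2.11 CPM in a library, and 9 of them, ABI4 and HRD among these, had no read at all. Tested members by group were 8 of 13 in group IX, 3 of 4 in group X, 7 of 9 in group I, 7 of 9 in group II, 8 of 16 in group III, 4 of 7 in group IV, 4 of 5 in group VI, 8 of 13 in group VIII, 7 of 11 with a double AP2 domain and 2 of 4 outside these lists. None of the 3 wax regulators of group V and none of the 3 Xb-L loci reached the test. Levels spread widely: AT5G61590 had a mean of 349 CPM per kb of transcript over the 16 libraries, AT5G07580 had 104 CPM per kb, AT1G22190 had 57.4 CPM per kb, and 10 members exceeded 20 CPM per kb.

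Submergence raised a set of ERF mRNAs in both genotypes and both fractions, and few members fell. DREB mRNAs rose as well, but in Col-0 polysome RNA DREB2C was the only DREB member called higher. In K48M total mRNA 16 of the 58 members rose and 0 fell, where 8.69% of all 19024 genes changed, 5.35% up and 3.34% down. In Col-0 total mRNA 13 rose and 0 fell, where 7.75% of all genes changed, 5.11% up and 2.64% down. In K48M polysome RNA 13 rose and 0 fell, where 8.24% of all genes changed, 5.45% up and 2.79% down. In Col-0 polysome RNA 10 rose and 2 fell, where 6.37% of all genes changed, 4.34% up and 2.03% down. Calls are at an adjusted p under 0.05 in edgeR's quasi-likelihood test, with Benjamini-Hochberg adjustment over all genes tested and the library set as a term. The members' median log2 change, submerged over dark, was 0.52, 0.60, 0.75 and 0.50 in that order of comparisons, and the median over all genes lay between -0.01 and 0.01.

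These counts lean on the library-set term and on single libraries. Without the term 5, 5, 3 and 3 members rose in K48M total, Col-0 total, K48M polysome and Col-0 polysome RNA, and none fell. In the 14 libraries without the conflicting pair, 6 of the 16 K48M total calls were kept, namely ABR1, AT5G51190, AT5G61890, AT3G60490, ERF104 and AT5G61590, and no others were made. The other 10 stayed positive in log2 change there. In Col-0 polysome RNA most of the 12 calls were lost when any library of these groups was left out. This held for the dark ST_FR library that is high in ribosomal RNA, the dark LTF_GG library and either submerged one. With the conditions of the sample titles no member and no gene of the table was called in any of the 4 responses.

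**Figure D1:**
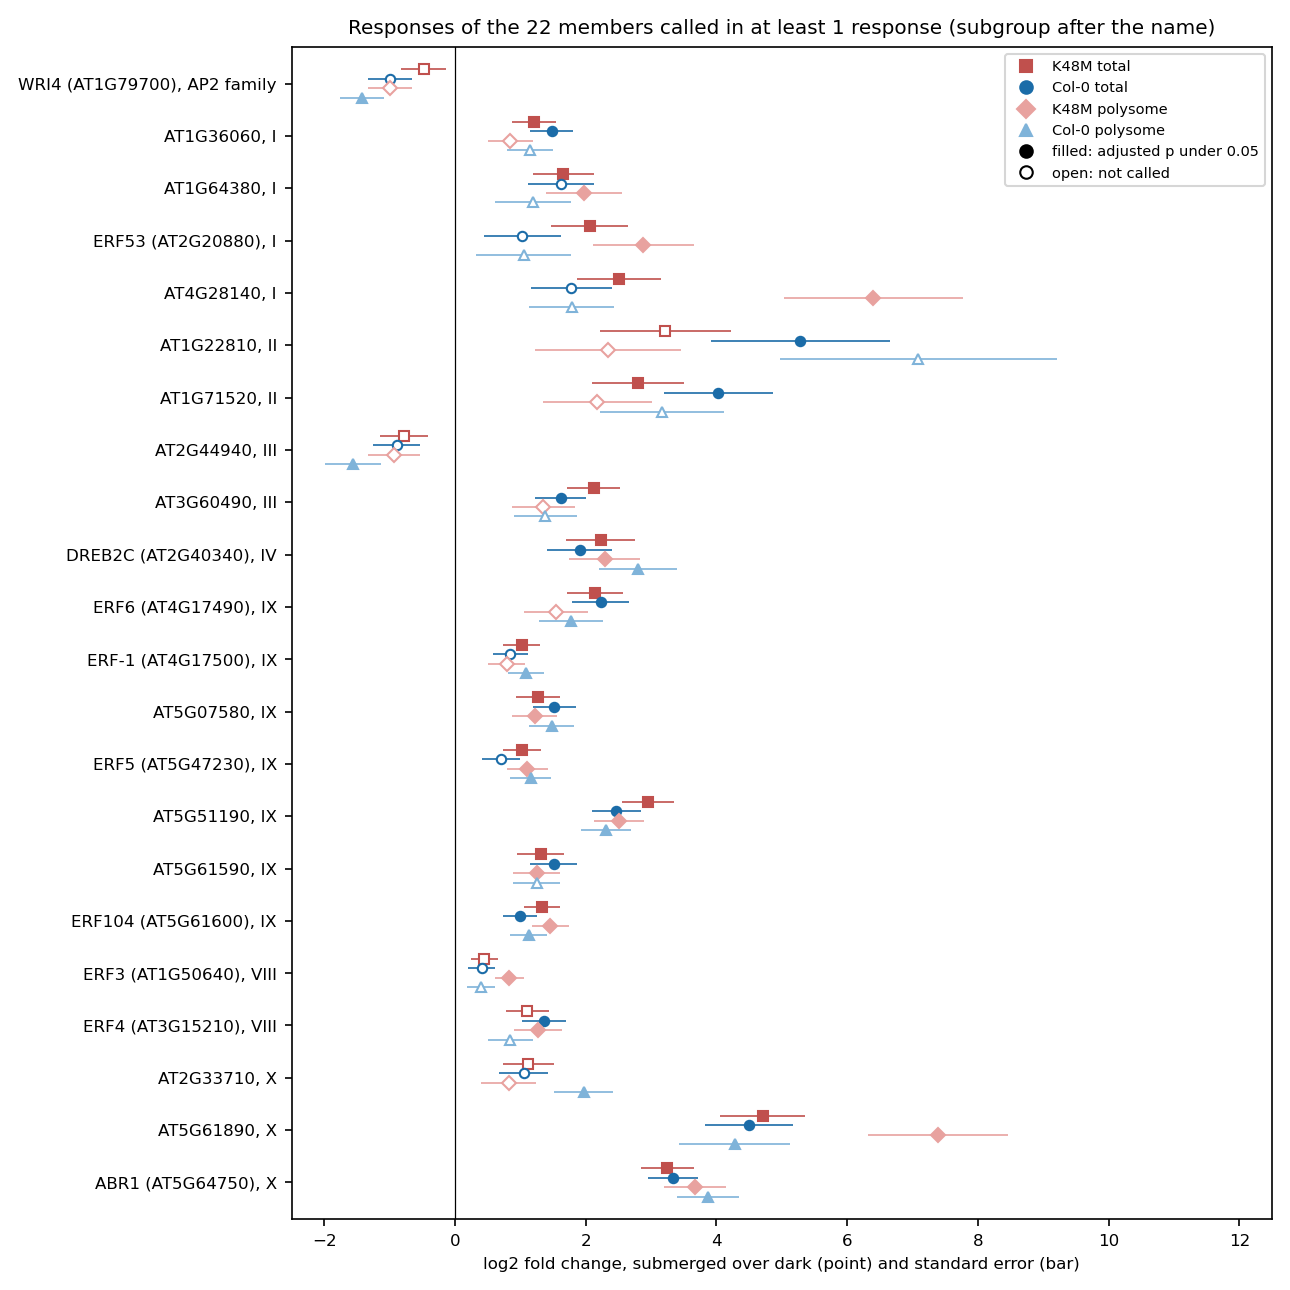
Log2 fold changes of the members, submerged over dark, in K48M and Col-0 total mRNA and polysome RNA; each row is a member that was called in at least 1 of the 4 responses, and bars are standard errors of the fit. Of these 22 members 20 rose in at least 1 response and 2, AT2G44940 and WRI4, fell in Col-0 polysome RNA. The points of AT4G28140 and AT5G61890 in K48M polysome RNA and of AT1G22810 in Col-0 polysome RNA are set against dark libraries without a read, so their size depends on the fit's prior count.

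ABR1, AT5G61890, AT5G51190, AT5G07580, ERF104 and DREB2C rose in all 4 responses. ABR1 and AT5G51190 also kept all 4 calls without the library-set term, and AT5G61890 kept 3. The promoters of ABR1 and DREB2C are shown as examples of windows that hold short motifs which AP2/ERF or WRKY factors are known to bind. Each sequence is the 250 bases before the annotated transcript start in RefSeq's TAIR10.1, on the gene's own strand, with the match in capitals. ABR1 (chr5:25891199-25891448, plus strand) has a dehydration-responsive core CCGAC and a GCC box core GCCGCC, here read from the other strand, and both lie within 54 bases of the start. DREB2C (chr2:16850495-16850744, minus strand) has a W box core TTGAC on the other strand at 248 and 162 bases before the start.
ABR1: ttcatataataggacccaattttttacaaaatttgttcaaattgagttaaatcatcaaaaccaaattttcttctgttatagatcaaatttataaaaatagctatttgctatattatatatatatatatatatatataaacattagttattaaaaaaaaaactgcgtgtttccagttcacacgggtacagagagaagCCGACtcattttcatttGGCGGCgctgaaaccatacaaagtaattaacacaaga
DREB2C: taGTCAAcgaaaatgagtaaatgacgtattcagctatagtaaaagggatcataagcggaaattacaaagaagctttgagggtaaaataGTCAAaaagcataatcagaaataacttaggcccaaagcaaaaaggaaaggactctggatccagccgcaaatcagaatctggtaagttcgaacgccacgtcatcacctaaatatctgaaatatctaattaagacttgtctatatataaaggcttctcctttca

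The windows of AT5G07580, ERF104 and AT5G61890 held none of the 5 motifs searched on both strands: the GCC box core, the dehydration-responsive core, the G box CACGTG, the W box core and the hypoxia-responsive promoter element. Over the 20 members that rose in at least 1 response, the GCC box core was present in 1 (5%), the dehydration-responsive core in 4 (20%), the G box in 3 (15%), the W box core in 13 (65%) and the hypoxia-responsive element in 0. All 27437 promoters of the same length held these motifs in 1.87%, 12%, 6.49%, 44.9% and 0.809% of cases. Among the 36 tested members without a call the shares were 5.56%, 16.7%, 8.33%, 55.6% and 2.78%. A match is only a description of letters in this window.

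All 3 tested members of group X rose in at least 1 response. ABR1, a repressor of abscisic acid responses that is also induced by wounding, had in total mRNA 11.2 and 25.7 CPM in submerged K48M, against 1.63 and 1.95 CPM in dark K48M. In Col-0 total mRNA it had 11.1 and 35.8 CPM in submerged Col-0, against 1.99 and 2.3 CPM in dark Col-0. All submerged libraries lay above all dark libraries, and in both genotypes the submerged LTF_GG library lay well above the ST_FR one. In polysome RNA ABR1 had 8.19 and 18.4 CPM in submerged K48M, against 0.783 and 1.26 CPM in dark K48M, and 10.9 and 22.3 CPM in submerged Col-0, against 1.4 and 1.16 CPM in dark Col-0. The log2 change was 3.25 ± 0.40 (adjusted p = 0.000117) in K48M total mRNA, 3.34 ± 0.38 (adjusted p = 5.62e-05) in Col-0 total mRNA, 3.67 ± 0.47 (adjusted p = 0.00013) in K48M polysome RNA and 3.87 ± 0.48 (adjusted p = 0.000122) in Col-0 polysome RNA. These calls held in each of the 16 fits that left out a library.

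AT5G61890, known as ERF114 and tied to shoot branching, was close to silent in the dark. It had 2.97 and 8.33 CPM in submerged K48M, against 0.163 and 0.195 CPM in dark K48M in total mRNA, and 2.14 and 4.68 CPM in submerged Col-0, against 0.166 and 0.115 CPM in dark Col-0. In polysome RNA it had 1.89 and 5.3 CPM in submerged K48M, against 0 and 0 CPM in dark K48M, and 1.6 and 2.98 CPM in submerged Col-0, against 0 and 0.166 CPM in dark Col-0. The dark groups together held 2 reads in total mRNA of either genotype, 1 in Col-0 polysome RNA and 0 in K48M polysome RNA. From summed reads the fold was 28-fold (7.4 to 237) in K48M total mRNA, 27.7-fold (7.27 to 235) in Col-0 total mRNA and 18.7-fold (3.08 to 768) in Col-0 polysome RNA, where the bounds are exact 95% intervals that cover counting error only. In K48M polysome RNA it was at least 11.2-fold higher, set against 3 reads over the dark group. The adjusted p was 0.000352, 0.000704, 0.000485 and 0.00636 in K48M total, Col-0 total, K48M polysome and Col-0 polysome RNA by edgeR. AT2G33710, the third tested member of the group, rose in Col-0 polysome RNA, with 13.5 and 8.6 CPM in submerged Col-0, against 4.2 and 2 CPM in dark Col-0 and a log2 change of 1.97 ± 0.45 (adjusted p = 0.0133). Its other 3 log2 changes, 1.12 ± 0.39 in K48M total, 1.05 ± 0.38 in Col-0 total and 0.82 ± 0.42 in K48M polysome RNA, did not pass.

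**Figure D2:**
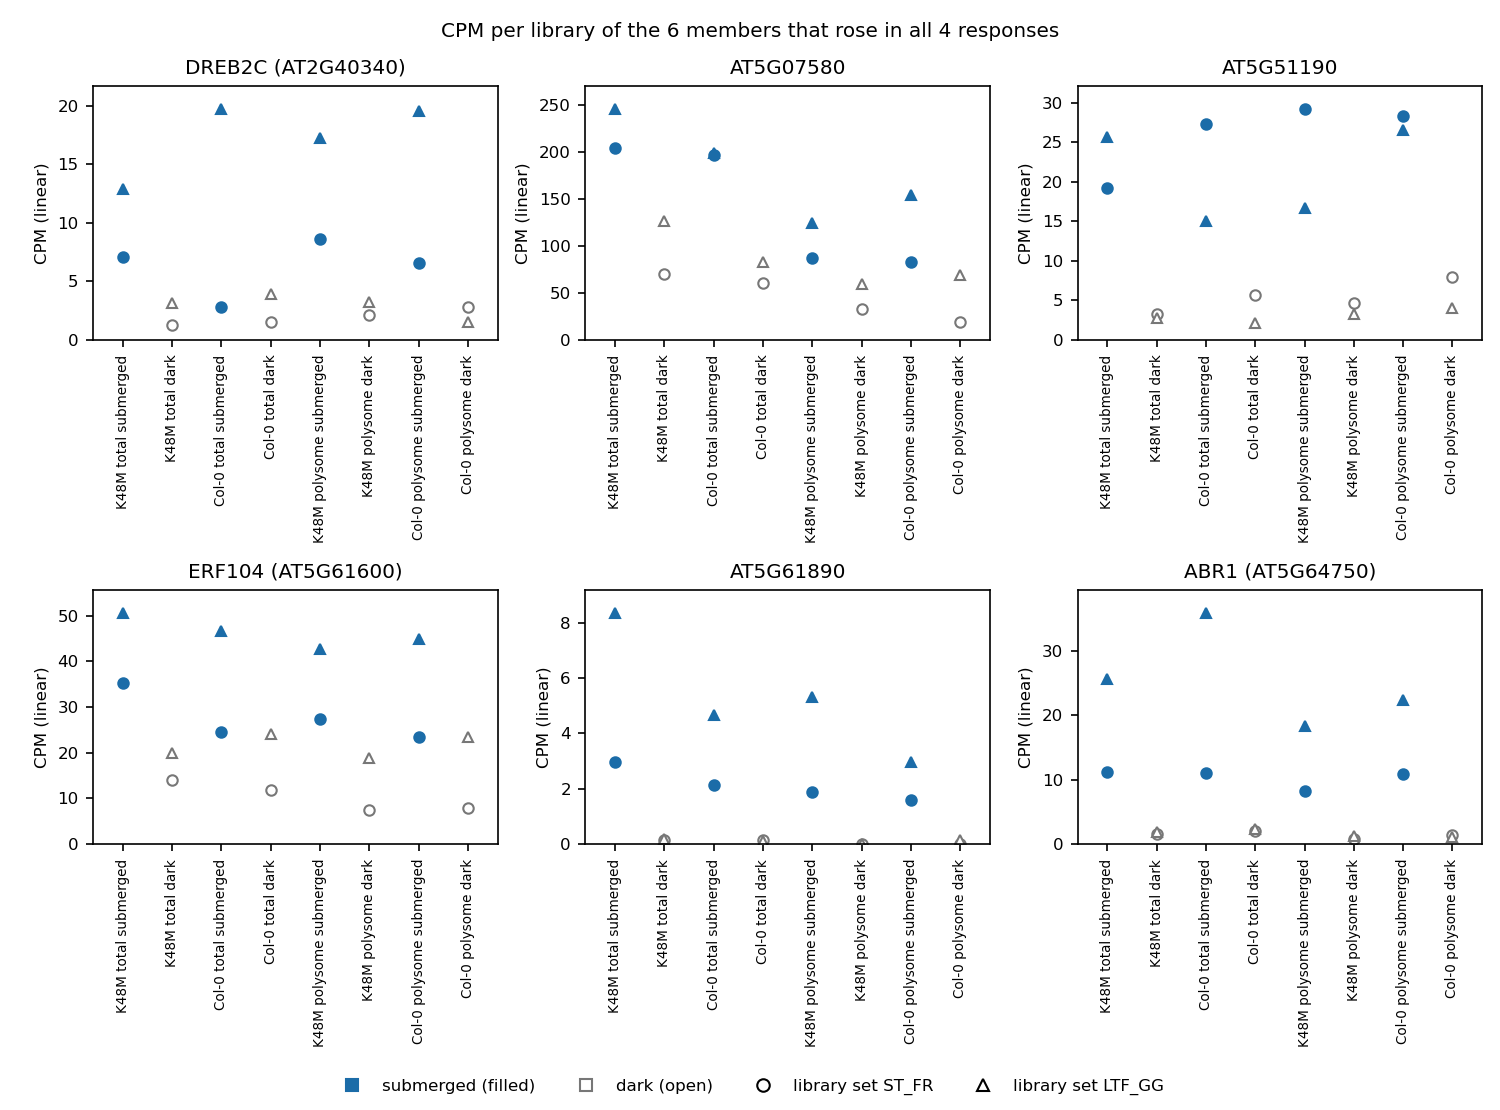
CPM on a linear axis in each of the 16 libraries for the 6 members that rose in all 4 responses; filled points are submerged libraries, open points dark ones, and circles and triangles are the ST_FR and LTF_GG library sets. Within each genotype and fraction the submerged points lie above the dark points, except for DREB2C in Col-0 total mRNA at 2.78 CPM.

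Group IX is the group of GCC-box activators that includes ERF-1, ERF2, ERF5 and ERF6, and its 8 tested members had positive fold changes in all 4 responses. The test passed for 7 of them in K48M and 5 in Col-0 in total mRNA, and for 5 in K48M and 6 in Col-0 in polysome RNA, and ERF2 passed in none. The group's median log2 change was 1.29, 1.25, 1.23 and 1.21 in that order. AT5G51190, also called ERF105 and known from freezing tolerance, rose most. It had 19.2 and 25.7 CPM in submerged K48M, against 3.25 and 2.73 CPM in dark K48M, and 27.3 and 15.1 CPM in submerged Col-0, against 5.64 and 2.19 CPM in dark Col-0 in total mRNA, and in polysome RNA it had 29.2 and 16.7 CPM in submerged K48M, against 4.7 and 3.25 CPM in dark K48M, and 28.3 and 26.5 CPM in submerged Col-0, against 7.94 and 3.99 CPM in dark Col-0. No submerged library overlapped a dark one, with a lowest submerged value of 15.1 CPM and a highest dark value of 7.94 CPM. The log2 change was 2.95 ± 0.40 (adjusted p = 0.000236) in K48M total mRNA, 2.47 ± 0.37 (adjusted p = 0.000583) in Col-0 total mRNA, 2.51 ± 0.39 (adjusted p = 0.000705) in K48M polysome RNA and 2.31 ± 0.38 (adjusted p = 0.00149) in Col-0 polysome RNA.

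ERF6, known for slowing leaf growth under osmotic stress and for defence, had 35.8 and 120 CPM in submerged K48M, against 11.5 and 22.2 CPM in dark K48M, and 67.9 and 35 CPM in submerged Col-0, against 9.45 and 14.1 CPM in dark Col-0 in total mRNA. In polysome RNA it had 14.1 and 21.6 CPM in submerged K48M, against 6 and 6.13 CPM in dark K48M, and 21 and 27.2 CPM in submerged Col-0, against 6.54 and 7.82 CPM in dark Col-0. Submerged values lay above dark values within each genotype and fraction, and in total mRNA the submerged pair differed between library sets, with LTF_GG high in K48M and ST_FR high in Col-0. ERF6 rose by 2.14 ± 0.43 (adjusted p = 0.00533) on the log2 scale in K48M total mRNA, 2.23 ± 0.44 (adjusted p = 0.00495) in Col-0 total mRNA and 1.77 ± 0.49 (adjusted p = 0.0411) in Col-0 polysome RNA, and its 1.54 ± 0.49 (adjusted p = 0.0653) in K48M polysome RNA did not pass. Its total mRNA values fell by over 1.5 times without 1 library, to 1.24 (adjusted p = 0.0895) without submerged K48M of LTF_GG and to 1.25 (adjusted p = 0.0658) without submerged Col-0 of ST_FR. Without the conflicting libraries the K48M value was 1.64 (adjusted p = 0.0623). ERF104, a substrate of the kinase MPK6 in the response to bacterial flagellin, had 35.2 and 50.5 CPM in submerged K48M, against 14.1 and 19.9 CPM in dark K48M, and 24.6 and 46.7 CPM in submerged Col-0, against 11.9 and 24.2 CPM in dark Col-0 in total mRNA. The LTF_GG library was the higher of each pair, and submerged values exceeded dark ones within each set. Its log2 change in total mRNA was 1.33 ± 0.27 (adjusted p = 0.0049) in K48M and 0.99 ± 0.26 (adjusted p = 0.0305) in Col-0. In polysome RNA it was 1.46 ± 0.28 (adjusted p = 0.00357) in K48M and 1.13 ± 0.28 (adjusted p = 0.0221) in Col-0. Without the library-set term the adjusted p of these 4 values lay between 0.243 and 0.459.

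AT5G61590, known as DEWAX and a repressor of wax synthesis genes in the dark, was the most abundant member. It had 378 and 482 CPM in submerged K48M, against 96.4 and 285 CPM in dark K48M, and 262 and 536 CPM in submerged Col-0, against 79.2 and 207 CPM in dark Col-0 in total mRNA. In polysome RNA it had 421 and 468 CPM in submerged K48M, against 174 and 203 CPM in dark K48M, and 415 and 532 CPM in submerged Col-0, against 161 and 247 CPM in dark Col-0. It rose by 1.31 ± 0.36 (adjusted p = 0.0342) in K48M total, 1.51 ± 0.36 (adjusted p = 0.0168) in Col-0 total and 1.25 ± 0.36 (adjusted p = 0.044) in K48M polysome RNA, and the log2 change of 1.25 ± 0.36 (adjusted p = 0.0522) in Col-0 polysome RNA missed the threshold. AT5G07580, the next most abundant, had 205 and 246 CPM in submerged K48M, against 69.8 and 127 CPM in dark K48M, and 197 and 199 CPM in submerged Col-0, against 60.5 and 82.9 CPM in dark Col-0 in total mRNA. Every submerged value was above every dark value of total mRNA, and the log2 change was 1.27 ± 0.33 (adjusted p = 0.0264) in K48M and 1.52 ± 0.33 (adjusted p = 0.00986) in Col-0. In polysome RNA AT5G07580 rose by 1.22 ± 0.34 (adjusted p = 0.0351) in K48M and 1.48 ± 0.34 (adjusted p = 0.0149) in Col-0, where the Col-0 value was 2.31 without the dark LTF_GG library. Without the conflicting libraries the K48M total mRNA change was 1.98 (adjusted p = 0.0132) for AT5G61590 and 1.56 (adjusted p = 0.061) for AT5G07580.

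ERF5, which acts with ERF6 in leaf growth and defence, rose by 1.02 ± 0.29 (adjusted p = 0.0406) in K48M total, 1.11 ± 0.31 (adjusted p = 0.0406) in K48M polysome and 1.16 ± 0.31 (adjusted p = 0.0367) in Col-0 polysome RNA, and had 0.71 ± 0.29 (adjusted p = 0.172) in Col-0 total mRNA. ERF-1 rose by 1.02 ± 0.28 (adjusted p = 0.0321) in K48M total and 1.09 ± 0.28 (adjusted p = 0.0293) in Col-0 polysome RNA, and its other log2 changes, 0.85 ± 0.27 in Col-0 total and 0.79 ± 0.28 in K48M polysome RNA, did not pass. Without the conflicting libraries the K48M total mRNA change was 0.78 (adjusted p = 0.199) for ERF5 and 0.74 (adjusted p = 0.296) for ERF-1, and that of ERF5 was 0.64 (adjusted p = 0.253) without submerged K48M of LTF_GG alone. ERF2 had log2 changes of 0.66 ± 0.39, 0.35 ± 0.38, 0.09 ± 0.39 and 0.49 ± 0.39 in K48M total, Col-0 total, K48M polysome and Col-0 polysome RNA. ERF1 (AT3G23240), an EIN3 target that joins ethylene and jasmonate signalling, held 28 reads over the 16 libraries and was not tested.

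**Figure D3:**
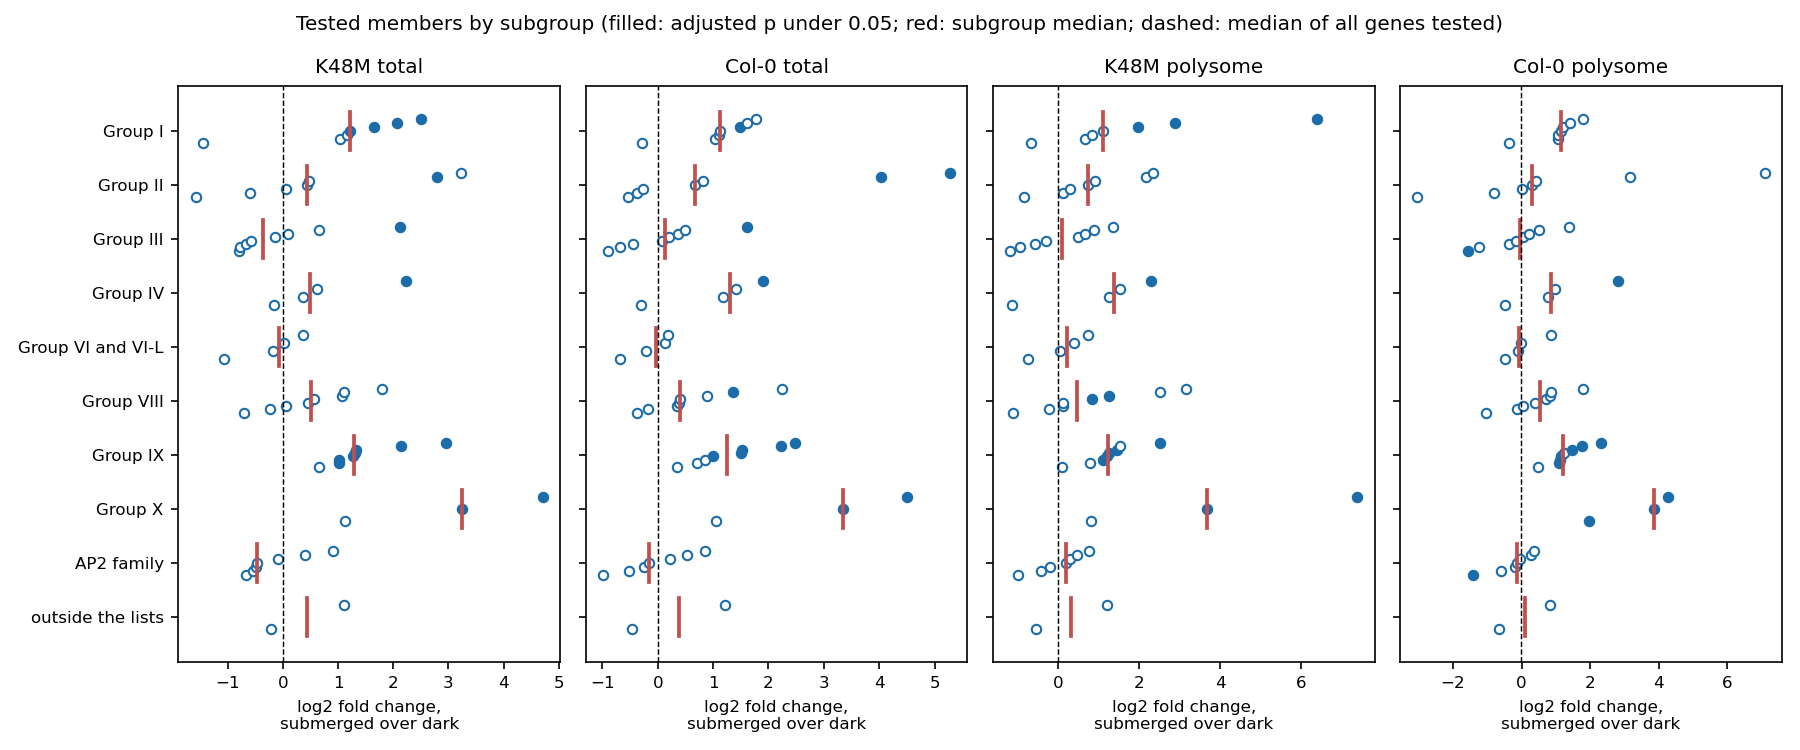
Log2 fold changes, submerged over dark, of the 58 tested members by group in the 4 responses; each point is a member and the red bar is the group median, with filled points at an adjusted p under 0.05. All points of groups IX and X lie above 0, and the other groups hold points on both sides of it.

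DREB factors of groups I to IV gave fewer calls. DREB2C, which activates HSFA3 in the heat response, was the 1 member of group IV that rose. It had 7.07 and 12.9 CPM in submerged K48M, against 1.3 and 3.12 CPM in dark K48M, and 2.78 and 19.7 CPM in submerged Col-0, against 1.49 and 3.92 CPM in dark Col-0 in total mRNA. The Col-0 groups overlapped, since the submerged ST_FR library at 2.78 CPM lay below the dark LTF_GG library at 3.92 CPM. In polysome RNA it had 8.61 and 17.2 CPM in submerged K48M, against 2.09 and 3.25 CPM in dark K48M, and 6.59 and 19.5 CPM in submerged Col-0, against 2.8 and 1.5 CPM in dark Col-0, without overlap. The log2 change was 2.23 ± 0.53 (adjusted p = 0.0151), 1.91 ± 0.50 (adjusted p = 0.027), 2.29 ± 0.54 (adjusted p = 0.0142) and 2.80 ± 0.60 (adjusted p = 0.00932) in K48M total, Col-0 total, K48M polysome and Col-0 polysome RNA. Without the library-set term none of the 4 passed, with adjusted p between 0.164 and 0.224. A single library carried each Col-0 value: the total mRNA change was 0.63 (adjusted p = 0.659) without the submerged LTF_GG library, and the polysome change 1.34 (adjusted p = 0.384) without the dark LTF_GG library. In K48M total mRNA it was 2.43 (adjusted p = 0.1) without the conflicting libraries.

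In group I, 4 of 7 tested members rose in K48M and 1 in Col-0 in total mRNA, and 3 in K48M and 0 in Col-0 in polysome RNA, while its median log2 change lay between 1.10 and 1.21 in each of the 4. AT1G36060, known as WIND3 and named for promoting cell dedifferentiation at wounds, had 82.1 and 54.1 CPM in submerged K48M, against 43.7 and 16.4 CPM in dark K48M, and 101 and 65.5 CPM in submerged Col-0, against 33.5 and 25.7 CPM in dark Col-0 in total mRNA. In polysome RNA it had 52.1 and 47.9 CPM in submerged K48M, against 23.5 and 30.8 CPM in dark K48M. It had 40.8 and 43.2 CPM in submerged Col-0 there, against 17.3 and 19.6 CPM in dark Col-0, and neither change was called. In total mRNA it rose by 1.21 ± 0.34 (adjusted p = 0.0342) in K48M and 1.48 ± 0.33 (adjusted p = 0.0117) in Col-0, and the submerged values lay above the dark ones in both. The K48M value was 0.71 (adjusted p = 0.279) without the dark LTF_GG library and 1.96 (adjusted p = 0.00584) without the dark ST_FR one. ERF53, a drought-induced factor, had 2.73 and 5.72 CPM in submerged K48M, against 1.04 and 0.18 CPM in dark K48M in polysome RNA and rose there by 2.88 ± 0.77 (adjusted p = 0.0304), and in K48M total mRNA by 2.06 ± 0.59 (adjusted p = 0.0408). In Col-0 its log2 change was 1.03 ± 0.59 in total mRNA and 1.05 ± 0.73 in polysome RNA, neither of them called, and these were 0.37 without the submerged LTF_GG library and 0.11 without the dark LTF_GG library. The K48M polysome value of ERF53 was 1.32 (adjusted p = 0.467) without the dark LTF_GG library, which held the low dark level, and 4.87 (adjusted p = 0.0133) without the dark ST_FR one. AT4G28140 had 0.84 and 2.76 CPM in submerged K48M, against 0 and 0 CPM in dark K48M in polysome RNA, at least 5.6-fold higher against 3 reads over the dark group (adjusted p = 0.00874), and it rose by 2.51 ± 0.65 (adjusted p = 0.0265) in K48M total mRNA. AT1G64380 rose by 1.66 ± 0.47 (adjusted p = 0.0376) in K48M total and 1.97 ± 0.58 (adjusted p = 0.0465) in K48M polysome RNA, where it was 1.15 (adjusted p = 0.45) without the dark LTF_GG library. None of these 4 K48M total mRNA calls held without the conflicting libraries: the log2 change there was 0.91 (adjusted p = 0.143) for AT1G36060, 1.62 (adjusted p = 0.334) for ERF53, 2.96 (adjusted p = 0.172) for AT4G28140 and 1.27 (adjusted p = 0.29) for AT1G64380. In Col-0 AT4G28140 and AT1G64380 were not called, but their submerged values lay above the dark ones too. In Col-0 total mRNA AT4G28140 had 1.5 and 2.88 CPM against 0.331 and 0.922 CPM, and AT1G64380 3.63 and 6.36 CPM against 2.15 and 1.15 CPM. In Col-0 polysome RNA AT4G28140 had 2.85 and 2.98 CPM against 0.467 and 1.33 CPM, and AT1G64380 2.85 and 4.21 CPM against 1.4 and 1.66 CPM. AT1G22190, a relative of WIND1 and the third most abundant member per kb, had 242 and 55.6 CPM in submerged Col-0, against 72.6 and 55.3 CPM in dark Col-0 in total mRNA. Its Col-0 log2 change of 1.12 ± 0.46 (adjusted p = 0.171) rested on the submerged ST_FR library, becoming -0.13 without it and 1.87 (adjusted p = 0.0083) without the submerged LTF_GG library.

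Group II gave a pair of called members at low levels, both almost off in dark Col-0 total mRNA. In polysome RNA AT1G71520 had 2.52 and 3.6 CPM in submerged K48M, against 1.31 and 0.18 CPM in dark K48M. It had 4.63 and 2.81 CPM in submerged Col-0 there, against 0.934 and 0.166 CPM in dark Col-0, and neither change was called. In total mRNA it had 3.25 and 10.7 CPM in submerged K48M, against 1.14 and 0.779 CPM in dark K48M, and 6.2 and 3.72 CPM in submerged Col-0, against 0.331 and 0.23 CPM in dark Col-0, and rose by 2.80 ± 0.71 (adjusted p = 0.0219) in K48M and 4.03 ± 0.83 (adjusted p = 0.00655) in Col-0. The K48M change was 1.46 (adjusted p = 0.22) without the submerged LTF_GG library and 1.5 (adjusted p = 0.31) without the conflicting pair. AT1G22810, known as ERF019 and linked to drought tolerance when overexpressed, had 4.27 and 2.16 CPM in submerged Col-0, against 0 and 0.115 CPM in dark Col-0 in total mRNA, a fold of 43-fold (7.26 to 1740) against 1 dark read (adjusted p = 0.0276). In Col-0 polysome RNA it had 1.96 and 3.51 CPM in submerged libraries and no read in dark ones, at least 7.45-fold, which did not pass (adjusted p = 0.062). In K48M it was not called, with 1.56 and 11 CPM in submerged K48M, against 0.813 and 0.195 CPM in dark K48M in total mRNA (adjusted p = 0.0614) and 1.05 and 5.09 CPM in submerged K48M, against 1.04 and 0.18 CPM in dark K48M in polysome RNA (adjusted p = 0.239). Its ST_FR libraries of K48M polysome RNA were almost level. The jasmonate regulator ORA47 did not pass in any response. In group III, AT3G60490 had 21.6 and 43.1 CPM in submerged K48M, against 5.69 and 8.96 CPM in dark K48M, and 29.9 and 14.6 CPM in submerged Col-0, against 5.8 and 8.76 CPM in dark Col-0 in total mRNA and rose by 2.12 ± 0.40 (adjusted p = 0.0031) in K48M and 1.62 ± 0.39 (adjusted p = 0.0181) in Col-0, where it was 0.82 (adjusted p = 0.214) without the submerged ST_FR library. In polysome RNA AT3G60490 had 7.35 and 8.48 CPM in submerged K48M, against 3.13 and 3.07 CPM in dark K48M. It had 9.62 and 8.07 CPM in submerged Col-0, against 2.8 and 3.82 CPM in dark Col-0, and neither change was called. AT2G44940 went the other way in Col-0 polysome RNA, with 2.49 and 2.11 CPM in submerged Col-0, against 8.41 and 5.65 CPM in dark Col-0 and a log2 change of -1.56 ± 0.43 (adjusted p = 0.0386). Its log2 change was negative in the other 3 responses too, -0.78 ± 0.37 in K48M total, -0.89 ± 0.36 in Col-0 total and -0.93 ± 0.40 in K48M polysome RNA, without passing. The cold regulators DDF1 and ddf2 were among the 8 loci of group III that were too low to test.

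Repressors of group VIII gave 2 members with a call. ERF4, an EAR-motif repressor, had 34.6 and 66 CPM in submerged K48M, against 16.4 and 30 CPM in dark K48M, and 46.1 and 28.8 CPM in submerged Col-0, against 14.9 and 14.4 CPM in dark Col-0 in total mRNA, and 19.8 and 25 CPM in submerged K48M, against 9.14 and 9.38 CPM in dark K48M, and 29.6 and 29.7 CPM in submerged Col-0, against 18.7 and 14.8 CPM in dark Col-0 in polysome RNA. Within each genotype and fraction the submerged libraries were the higher. It rose by 1.36 ± 0.34 (adjusted p = 0.0208) in Col-0 total and 1.27 ± 0.37 (adjusted p = 0.0424) in K48M polysome RNA, while 1.11 ± 0.33 (adjusted p = 0.0504) in K48M total and 0.85 ± 0.35 (adjusted p = 0.189) in Col-0 polysome RNA did not pass. The Col-0 total value was 0.83 (adjusted p = 0.188) without the submerged ST_FR library. ERF3, another EAR-motif repressor, rose by 0.83 ± 0.22 (adjusted p = 0.0291) in K48M polysome RNA and had log2 changes of 0.40 to 0.45 in the other 3. ERF11, which represses ethylene synthesis genes, had positive log2 changes in all 4, 1.79 ± 0.67, 2.24 ± 0.72, 3.15 ± 1.03 and 0.83 ± 0.90, at levels of 5.55 CPM or less, and passed in none. ERF9 had log2 changes between -0.24 and -0.12.

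None of the 4 tested cytokinin response factors of group VI was called, and their median log2 change lay between -0.07 and 0.21. None of the 7 tested factors with a double AP2 domain rose, a class known for development. WRI4, an activator of wax synthesis in stems, had 14.4 and 19.3 CPM in submerged Col-0, against 34.1 and 59.2 CPM in dark Col-0 in polysome RNA and fell by 1.42 ± 0.34 on the log2 scale (adjusted p = 0.0194). Its log2 change was -0.48 ± 0.34, -0.99 ± 0.34 and -0.99 ± 0.34 in K48M total, Col-0 total and K48M polysome RNA. The Col-0 total value was -0.14 without the dark LTF_GG library and -1.51 without the dark ST_FR one, where it was called. Only 17.8% of WRI4 reads were unique, and 8 other tested members also lay under 90%. All of these loci have 2 or 3 transcript models, while every tested member with 1 model had 100% unique reads. A low share thus went with several models of the same locus, which the counts used here sum. In unique reads WRI4 was not called.

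A difference between genotypes in the response was not detected at this depth. The test of K48M minus Col-0 responses called 0% of genes and 0 members in total mRNA and in polysome RNA, by edgeR, and DESeq2 called 0 members and 1 gene of the table in total mRNA. At an unadjusted p under 0.05 there were 166 genes in total mRNA and 128 in polysome RNA, and 1 member in each, PLT1 at -1.40 ± 0.64 and AT4G28140 at 4.61 ± 1.75, whose dark K48M libraries hold no read. Over the 58 members the median standard error of this difference was 0.61 in total mRNA and 0.66 in polysome RNA, so that differences near 1 on the log2 scale lie within the error of most members. ABR1 differed by -0.08 ± 0.59 in total mRNA and -0.20 ± 0.75 in polysome RNA. AT5G51190 differed by 0.48 ± 0.55 and 0.20 ± 0.55, and ERF104 by 0.35 ± 0.37 and 0.33 ± 0.39. In the direct tests of K48M against Col-0, where 0.00526% of genes were called (KIN10 itself), no member was called in either condition or fraction. At an unadjusted p under 0.05 there were 7 members (12.1%) in dark total, 3 (5.17%) in submerged total, 2 (3.45%) in dark polysome and 1 (1.72%) in submerged polysome RNA, where 12.5%, 7.25%, 0.993% and 1.18% of all genes passed it, so that the total mRNA shares were no higher than those of all genes and the polysome ones rest on 1 or 2 members.

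Polysome RNA was also set against total mRNA of the same genotype and condition, as a measure of ribosome loading relative to other genes. In dark K48M, where 4.37% of genes were called and 2.71% were lower, ERF3 and CRF11 were lower in polysome RNA. In submerged K48M, where 3.88% were called and 2.34% were lower, AT3G60490, CRF11, ERF6 and ERF3 were lower, and no member was higher in either. ERF6 had 14.1 and 21.6 CPM in polysome RNA of submerged K48M, against 35.8 and 120 CPM in total mRNA, a log2 change of -2.04 ± 0.44 (adjusted p = 0.0255). It was -1.14 (adjusted p = 0.204) without the LTF_GG total mRNA library and -1.07 (adjusted p = 0.142) without the conflicting pair. ERF3 had 37 and 30.1 CPM in polysome RNA of submerged K48M, against 65.3 and 58.1 CPM in total mRNA (-0.88 ± 0.21 (adjusted p = 0.036)), and in dark K48M 19.3 and 18.2 CPM against 42.3 and 47.7 CPM (-1.26 ± 0.22 (adjusted p = 0.0111)). CRF11 had a log2 change of -1.43 ± 0.30 (adjusted p = 0.0245) in submerged and -1.64 ± 0.30 (adjusted p = 0.0126) in dark K48M, and AT3G60490 one of -2.0 ± 0.40 (adjusted p = 0.0217) in submerged K48M.

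In Col-0 no member was called between fractions, where 0.184% of genes were called under submergence (0.0368% higher and 0.147% lower in polysome RNA) and 0.0105% in the dark. At an unadjusted p under 0.05 there were 9 members (15.5%) in each condition, near the 15.1% of all genes under submergence and the 14.2% in the dark. In K48M there were 15 members (25.9%) under submergence, where 22.6% of all genes passed. In dark K48M there were 20 members (34.5%), where 24% of all genes passed. In submerged Col-0 ERF6 had 21 and 27.2 CPM in polysome RNA, against 67.9 and 35 CPM in total mRNA, and ERF3 had 32.4 and 30.7 CPM, against 50.6 and 44.1 CPM. Whether this loading differs between K48M and Col-0 was not tested. The members' median log2 value was -0.46 in submerged K48M, -0.48 in dark K48M, -0.28 in submerged Col-0 and -0.05 in dark Col-0, against medians of all genes between -0.01 and 0.01. The change of loading under submergence, the difference of the polysome and total mRNA responses, gave 0 members and 0% of genes in both genotypes. At an unadjusted p under 0.05 there was 1 member (1.72%) in each, where 1.16% of all genes passed in K48M and 0.694% in Col-0. Without the library-set term ERF3 in dark K48M was the 1 member still called in these comparisons. Without the conflicting libraries ERF3 and CRF11 kept both calls, and ERF6 and AT3G60490 lost theirs. Each of these 6 calls was lost in at least 3 of the 16 fits that left out a library. CRF11, a locus of 2 transcript models with 7.0% unique reads, was not called in unique reads.

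**Figure D4:**
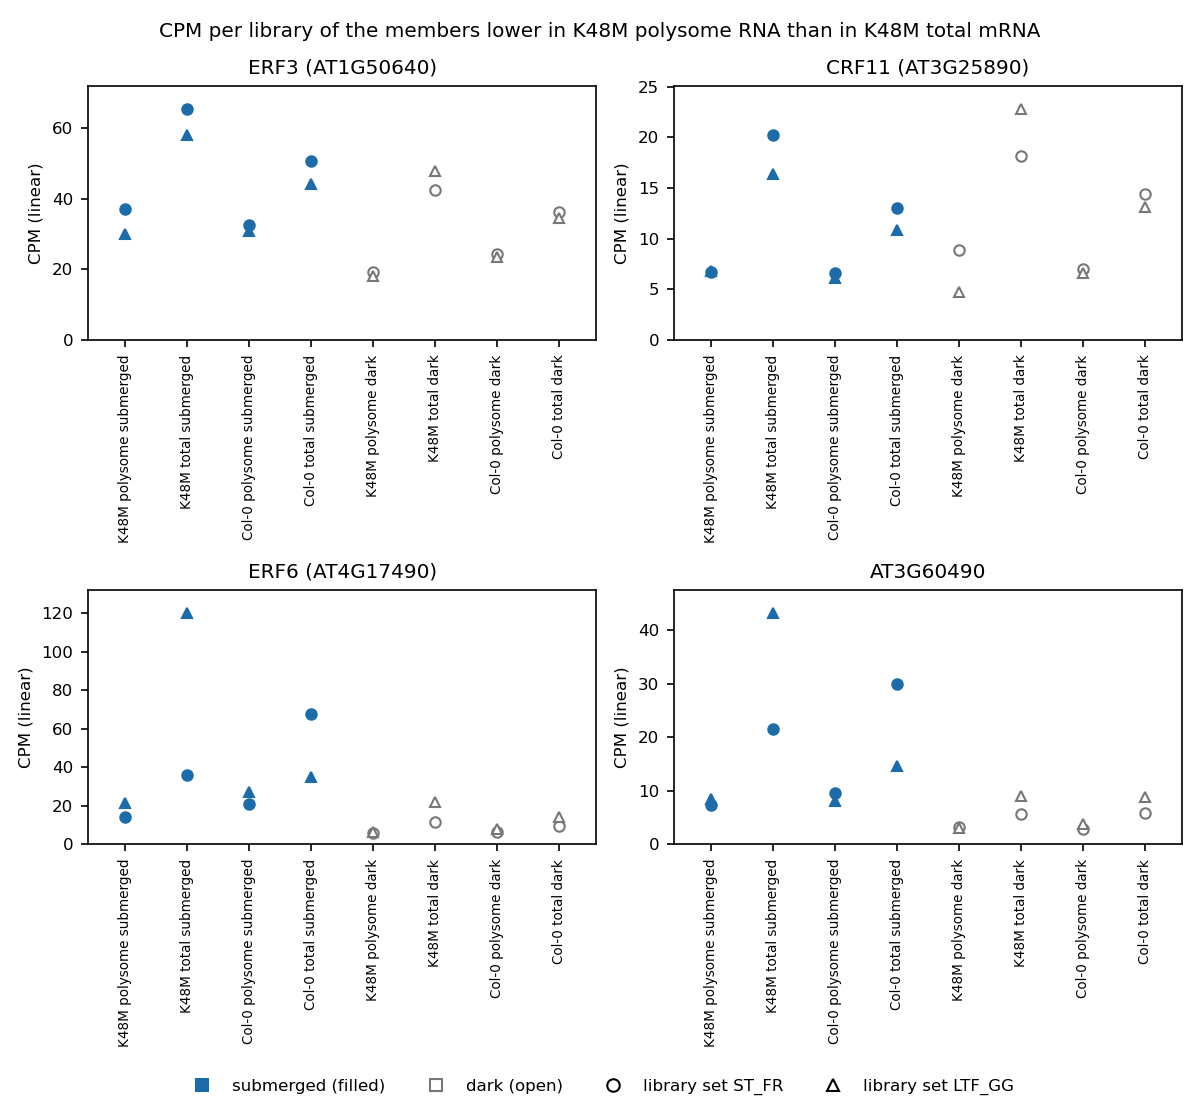
CPM on a linear axis of ERF3, CRF11, ERF6 and AT3G60490 in polysome RNA and total mRNA of K48M and Col-0, submerged and dark; each point is a library. In submerged K48M the polysome points of all 4 lie below the total mRNA points.

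Several members that rose are neighbours. ERF6 and ERF-1 lie 5041 bases apart on chromosome 4 on opposite strands, and AT5G61590 and ERF104 lie 832 bases apart on chromosome 5 on the same strand, with no coding gene between either pair. Among 9 such pairs of members with at most 2 coding genes between them, 3 had both partners tested, and these 2 had both partners risen. The third, ERF2 and ERF5, lies 6924 bases apart with 1 coding gene between, and ERF5 alone was called. All 3 pairs belong to group IX, where 7 of the 8 tested members rose in at least 1 response. An effect of the neighbourhood was not tested. DREB2C has AT2G40350, of the same DREB2 branch, 939 bases away, and that locus held 9 reads in the 16 libraries.

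Genes of ethylene synthesis and perception moved in part. Of 11 tested synthesis genes 4 rose in K48M total, 3 in Col-0 total, 2 in K48M polysome and 2 in Col-0 polysome RNA. Among all genes 5.35%, 5.11%, 5.45% and 4.34% rose in that order. ACO1, an ACC oxidase, rose by 3.89, 4.04, 3.61 and 3.99 on the log2 scale in K48M total, Col-0 total, K48M polysome and Col-0 polysome RNA. ACS11, an ACC synthase, rose in total mRNA, by 2.54 in K48M and 2.58 in Col-0. Of 13 tested receptor and signalling genes, the receptor ETR2 was the 1 that rose in all 4 responses, by 2.39, 3.01, 2.62 and 3.01, and CTR1 rose in K48M polysome RNA. EIN2 (AT5G03280) was lower in the submerged library of every genotype, fraction and set. In Col-0 total mRNA it had 28.4 and 36.1 CPM submerged, against 49.4 and 47.5 CPM in the dark. Among 9 known targets of ERF and DREB factors, HSFA3 rose in both K48M fractions, by 1.58 in total mRNA and 1.39 in polysome RNA, COR15A rose in Col-0 total mRNA and the chitinase gene HCHIB rose in both polysome responses. Other targets went down: RD29A (AT5G52310) had 1.92 and 5.52 CPM in submerged Col-0 total mRNA, against 3.98 and 13.9 CPM in the dark. COR47 (AT1G20440) had 167 and 222 CPM there, against 244 and 325 CPM. Both were lower in the submerged library of every genotype, fraction and set. Of the 5 group VII genes, ERF73 and ERF71 rose in all 4 responses, with log2 changes of 3.39 to 3.67 and 5.80 to 6.42. Of the 33 tested AP2/ERF loci that the text rule misses, 4 rose and 1 fell in K48M total, 5 rose in Col-0 total, 5 rose and 1 fell in K48M polysome and 3 rose in Col-0 polysome RNA. Of these K48M total mRNA calls, ACO1, ACS11, AT1G12010, ETR2, ERF73 and ERF71 kept theirs without the conflicting libraries, HSFA3 (1.22, adjusted p = 0.123) and ACS7 did not, and DREB2A was the 1 kept of the 5 loci that the text rule misses.

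The authors' deposited table adds the lines i4g1-2 and 4SA15, where i4g1-2 carries a mutation of the translation factor eIFiso4G1. Libraries of both lines come only from a second experiment, which has its own Col-0 libraries and none of K48M. Which experiment's Col-0 libraries gave the Col-0 folds of that table was not determined here. Line and experiment cannot be told apart where these lines are set beside K48M. The authors' index sheet gives the name 4SA15 to libraries whose sample titles read 4A-15, and the labels do not explain the genotype of that line. It holds 43 members among 8391 transcript models, as the authors' log2 folds of submergence over dark, without an error or a count, so no test was made. In total mRNA the authors' median over the members was 1.21 in K48M, 1.12 in i4g1-2, 1.07 in 4SA15 and 1.25 in Col-0, against medians over all listed models of -0.10, -0.08, -0.06 and -0.13. In polysome RNA the authors' deposited table gives members' medians of -0.18 in K48M, 0.07 in i4g1-2, 0.36 in 4SA15 and 1.03 in Col-0. Over all its models these medians are -1.51, -0.94, -1.01 and -0.30, so the whole table is lower in the 3 lines.

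Relative to Col-0 the authors' deposited table has a lower polysome fold for 39 of 43 members in K48M, 37 in i4g1-2 and 35 in 4SA15. The shares over all its models were 94.2%, 89.2% and 90.2%. For total mRNA it has a lower fold for 28, 22 and 21 of the 43, against 51.5%, 45.5% and 47.8% of all models. The 10 listed members of group IX had median polysome folds of -0.21 in K48M, 0.50 in i4g1-2, 0.53 in 4SA15 and 1.23 in Col-0 in the authors' deposited table. ERF5 had -0.32, 0.18, 0.53 and 1.12 in that order and DREB2C had 1.01, 0.71, 1.18 and 2.89 in the authors' deposited table. ABR1 had 2.12, 2.81, 3.15 and 4.26 there, and AT5G51190 had 1.22, 1.91, 1.98 and 2.32, by the authors' deposited table. The authors' deposited table marks DREB2C, ERF5, AT4G39780 and AT2G33710 in the list it names TUR, and 7 members, AT5G51190, ERF6, ERF-1, AT1G33760, AT5G61890, AT1G71520 and AT4G16750, in a list of 959 models that depend on SnRK1 and not on eIFiso4G1. These lists were chosen by the authors on these samples and are no independent evidence.

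The authors' polysome folds in K48M and the count-based ones differ in level. ERF104 is at -0.09 in the authors' deposited table and at 1.46 ± 0.28 from the counts, and AT5G07580 is at -0.10 and 1.22 ± 0.34. The counts were scaled so that the median gene is near 0, and the authors' K48M polysome folds have a median of -1.51 over their models. How the authors scaled these folds is not given in the sources used here.

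**Figure D5:**
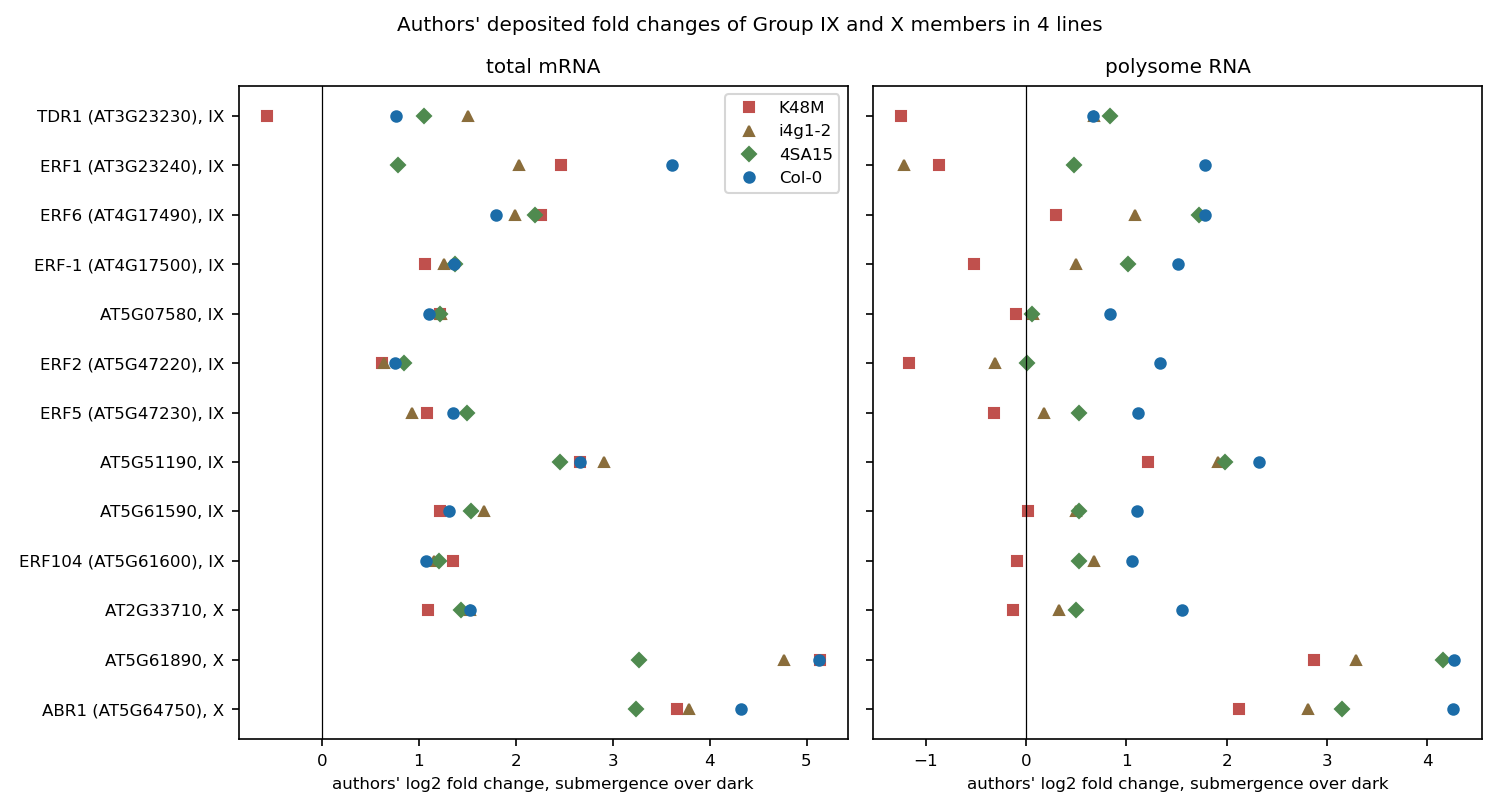
Log2 folds of submergence over dark from the authors' deposited table, in total mRNA (left) and polysome RNA (right), for the listed members of groups IX and X; each point is 1 line, K48M, i4g1-2, 4SA15 or Col-0, and no error is given. In polysome RNA the K48M point of ERF5 is at -0.32 and its Col-0 point at 1.12, and in total mRNA they are at 1.09 and 1.35.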

How the data were processed

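The counts used are whole numbers of reads per transcript model, which the authors deposited as total gene reads and as unique gene reads, per the file headers. The build is TAIR10 per the submitters' processing notes. No source used here names the aligner or says whether strand was used. The authors' log2 fold changes of submergence were read from the deposited table, with no stated scaling. Gene length is the deposited length of the longest model of a locus.

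Models were summed to loci, and 11 rows per table without an identifier were left out (at most 0.0084% of reads). Genes passed edgeR's filterByExpr at a minimum count of 10 and a minimum total of 15. edgeR 4.0.16 (R 4.3.3) fitted TMM-scaled counts with 8 group terms and the library set, leaving 7 residual degrees of freedom, and the quasi-likelihood test was called at an adjusted p under 0.05 over 19024 genes. The common biological coefficient of variation was 23.3%. Standard errors are the log2 change over the square root of F. Values in the text are TMM-scaled CPM, with TMM factors of 0.572 to 1.338. The procedure was run on simulated data without a library-set effect, so that run does not show how the set term behaves on these data. Depths of 3.75 M to 6.77 M reads limit the precision of members under about 10 reads a library; intervals cover counting error only.

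Members and gene lists were chosen with earlier results of these data known. Members named in full are the 8 with the largest called change in each response, those called in the other comparisons, the 5 most abundant and a fixed set of well-known members; PLT1, AT4G39780 and the members of the authors' lists were added after their values were seen. Alternatives were the 14 libraries without conflicting labels, title conditions, no library-set term, unique reads, RLE size factors, no count filter, no ribosomal RNA genes, DESeq2 1.42.0 and each library left out. Promoters come from RefSeq's TAIR10.1 table; all 97 members matched a gene there by locus, and the promoter of 1 of the 6 members that rose in all 4 responses is not reported here. Protein features were not analysed here. Counts of i4g1-2 and 4SA15 were not analysed here.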

Additional observations from a re-analysis of the deposited data

How the results depend on the processing

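The comparisons of genotypes and of responses gave no called member under any alternative tried, while the submergence calls depended on the model and on single libraries. Among all genes 8.69%, 7.75%, 8.24% and 6.37% were called in K48M total, Col-0 total, K48M polysome and Col-0 polysome RNA. Members called there numbered 16, 13, 13 and 12 in that order. They numbered 6, 19, 21 and 18 in the 14 libraries without conflicting labels. With the conditions of the sample titles, which differ only for 2 K48M total libraries, they were 0 in all 4. Over the 16 fits that left out a library they ranged over 7 to 20, 3 to 14, 4 to 16 and 4 to 16, lowest without a library of that comparison itself. The number of all genes called also moved widely over these fits and was also lowest without a library of the comparison itself. These ranges thus do not describe the members alone. A group left with 1 library was assumed to vary like the others. Unique reads, RLE size factors, no count filter, no ribosomal RNA genes and DESeq2 kept each of these member counts within 1.5 times. For polysome against total RNA, 4 members in submerged K48M became 2 without the conflicting libraries, 1 with title conditions and 7 by DESeq2. There 2 members in dark K48M became 1 with title conditions, 5 without the count filter and 6 by DESeq2. Leaving out a library gave 0 to 7 and 0 to 8 of these. For submerged Col-0, where 0.184% of all genes were called with 16 libraries, 0 members were called. A few members were called there in the 14 libraries or when a library was left out. The number of all genes called between fractions also moved widely with the library left out, so these member counts do not describe the members alone.

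The fit without the replicate block, which drops the library set, called 5, 5, 3 and 3 members in the same order of responses, and 0 in submerged and 1 in dark K48M for polysome against total RNA. The sample titles do not state a pairing of the libraries, but each set holds 1 library of every group. Deviations of libraries with the same set correlated between -0.117 and 0.677 over 28 pairs of groups, and 20 were above 0.1.

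Signs of log2 changes in K48M total mRNA turned under the title conditions, where the cause is by construction the exchange of 2 libraries: AT1G22810 -2.26, AT5G61890 -0.64, AT1G71520 -1.57, ABR1 -0.37, AT5G51190 -0.70, ERF6 -0.97, AT3G60490 -0.57, AT4G28140 -0.69, AT2G33710 -0.72, ERF5 -0.32, WRI4 0.14, ERF53 -0.62, AT1G64380 -0.38, CRF11 0.32, ERF-1 -0.34, ERF2 -0.16, ERF4 -0.30, AT1G22190 -0.81, ORA47 -0.21, AT1G36060 -0.09. CRF11 there was 0.16 in the 14 libraries. When a library was left out, AT1G22190 ranged over -0.13 to 1.87 in Col-0 total mRNA, ORA47 over -0.09 to 0.95 in K48M total and -0.32 to 5.27 in K48M polysome RNA, CRF11 over -0.45 to 0.13 and -0.35 to 0.49 in the same, and ERF2 over -0.37 to 0.60 in K48M polysome and -0.17 to 1.11 in Col-0 polysome RNA. ERF9 ranged over -0.80 to 0.27, -0.76 to 0.66, -0.82 to 0.27 and -0.29 to 0.04 in K48M total, Col-0 total, K48M polysome and Col-0 polysome RNA. None of these 5 was called in these responses with all 16 libraries. AT1G22190 was called in Col-0 total mRNA without the submerged LTF_GG library of that group, and in K48M total mRNA in 3 of the 16 fits, at 1.11 to 1.76. In all, 29 pairs of a member and a response that were not called with 16 libraries were called in at least 1 of these fits, over 18 members. Such pairs were not counted over all genes. Depth limits the members near 1 CPM, where a library holds few reads.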
